A study of Homo sapiens with 16 samples.

Results

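The cytosolic RNA and DNA sensors are 10 genes whose products detect nucleic acids in the cytosol or in endosomes, pass that signal on, or edit the RNA that sets it off. They are DDX58 (RIG-I), IFIH1 (MDA5), DHX58 (LGP2), MAVS, EIF2AK2 (PKR), ADAR, ZBP1, TLR3, TLR7 and TMEM173 (STING). They were found as the probes whose gene name in the array files equals one of these symbols, which gave 19 probes for 10 genes, among 50599 probes and 32080 gene symbols in all. The rule itself uses no measured value, though the genes were picked with earlier results of these data known. RPMI-8226 and MM.1S, established human multiple myeloma cell lines, were treated for 6 days with the solvent DMSO, with the EZH2 inhibitor GSK126 (1 µM), with the G9a inhibitor UNC0638 (1 µM), or with GSK126+UNC0638 (1 µM each). EZH2 trimethylates H3K27 and G9a, encoded by EHMT2, methylates H3K9. Each of the 8 groups had 2 biological replicates, and each replicate was hybridised to its own single-colour array, which makes 16 arrays. The comparisons ask how the sensor genes responded to each inhibitor and to both, and whether the cell lines differed.

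RIG-I and MDA5 are helicases that bind double-stranded RNA or RNA with a triphosphate end, and LGP2 is a relative without the signalling domains that modulates them. They signal through MAVS on mitochondria, while STING relays signals from the DNA sensor cGAS, and TLR3 and TLR7 read double-stranded and single-stranded RNA in endosomes. PKR stops translation when it binds double-stranded RNA, ZBP1 triggers necroptosis and inflammation, and ADAR converts adenosine to inosine in double-stranded RNA, which keeps cellular RNA from being sensed. Several of these genes are themselves induced by interferon, and plasma cell lines differ in which of them they carry.

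A level below is the log2 of a spot's intensity minus the log2 of the 75th percentile of its array, so a level of 0 equals that percentile and a difference of 1 is a 2-fold change. Levels of different probes cannot be set against each other. Between 46.5% and 49.7% of the spots of an RPMI-8226 array and between 49.9% and 52.8% of those of an MM.1S array were well above background, and no spot was saturated. All 8 plasma cell markers looked at were above background on every array. Each cell line was on 1 slide scanned once, so line and slide cannot be told apart, and treatments lay in columns and replicate numbers in rows of a slide. With both inhibitors the median difference from DMSO over all probes tested was -0.14 in RPMI-8226 and -0.12 in MM.1S cells, against which the values below are to be read. Differences were tested with limma on every probe that both arrays of some group showed well above background. P-values were adjusted by Benjamini-Hochberg over those probes, and one under 0.05 counts here as a rise or a fall. With 2 arrays per group the precision is set by the number of arrays. Where a gene has several probes, the one brightest on average across the 16 arrays stands for it, and the others are given beside it.

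The following RefSeq sequences upstream of the annotated start (GRCh38.p14) are those of IFIH1, EIF2AK2 and TLR3. They are shown because IFIH1 and TLR3 passed the test with both inhibitors in MM.1S cells, while EIF2AK2 passed in neither cell line. In RPMI-8226 cells IFIH1 and TLR3 passed only under alternative settings given below, as EIF2AK2 did in both cell lines. Windows from 250 bases before to 50 bases after the start were on hand for 6 of the 10 genes, DDX58, IFIH1, MAVS, EIF2AK2, ADAR and TLR3. They were searched on both strands for GAAANNGAA, an interferon-response motif, and TTCNNNGAA, a STAT motif, whose matches are in capitals. Positions count back from the start, with the first transcribed base as 1.
IFIH1, chr2:162318685-162318868, minus strand, bases -184 to -1: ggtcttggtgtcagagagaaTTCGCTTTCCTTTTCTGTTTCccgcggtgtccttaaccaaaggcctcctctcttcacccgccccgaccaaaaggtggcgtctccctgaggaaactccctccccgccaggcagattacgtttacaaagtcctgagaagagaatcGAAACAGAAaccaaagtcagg
EIF2AK2, chr2:37156978-37157007, minus strand, bases -27 to 3: agggaaggcggagtccaagggGAAAACGAA
TLR3, chr4:186068967-186068996, plus strand, bases -189 to -160: tctgtgaccctTTCAATGAAatccaaggat
TLR3, chr4:186069095-186069124, plus strand, bases -61 to -32: tccctttgcccTTCTTGGAAtgcaccaaac
TLR3, chr4:186069132-186069161, plus strand, bases -24 to 6: cattttttttcaagctttactTTCACTTTC
IFIH1 held 4 interferon-response matches, of which 3 overlap by 3 bases each on the opposite strand from base -164. EIF2AK2 held 1, which spans the start, and TLR3 held 1 across its start and 2 STAT matches. No match to either motif was found in the windows of DDX58, MAVS or ADAR. Of all 35116 promoter windows, 8.11% held the interferon-response motif and 7.66% the STAT motif. The windows of MAVS, EIF2AK2 and DDX58 had 34, 30 and 27 CG pairs, against 12 for IFIH1, 5 for TLR3 and a median of 14 over all windows. Those of ADAR, which did not pass the test in either cell line except under quantile normalization in MM.1S cells, had 13 or 14. Such a match is a run of letters, and binding was not measured.

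**Figure D1:**
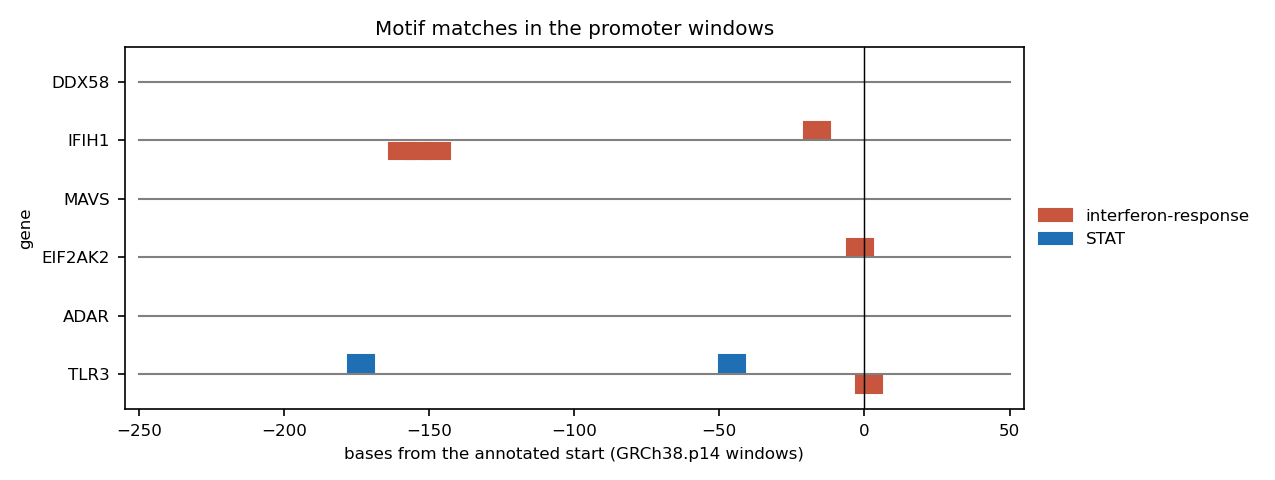
Matches to an interferon-response motif and a STAT motif in the promoter windows of 6 genes, by distance in bases from the annotated start (GRCh38.p14, start at the vertical line). Boxes above a gene's line are matches read along the gene and boxes below it are on the opposite strand. The 3 overlapping IFIH1 matches merge into 1 box, and DDX58, MAVS and ADAR have none.

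With both inhibitors in MM.1S cells, 5 of the 10 sensor genes rose and none fell, namely DHX58, IFIH1, TLR3, TLR7 and TMEM173. Over all probes tested in that comparison 53.6% were called and 22.2% were called higher. In RPMI-8226 cells 1 of the 9 genes tested rose, TLR7, where 12.6% of all probes were called and 7.11% were called higher. With the replicate number as a block, which was taken to pair the samples of these cells, DHX58, IFIH1 and TLR3 rose as well. For TLR3 both DMSO arrays of these cells were below background, and it passed the filter there only through the GSK126 and combination groups. ZBP1 was not tested there, because neither of its probes was well above background on any RPMI-8226 array. UNC0638 alone raised 3 of 10 genes in MM.1S cells, DHX58, IFIH1 and TLR7, against 29.5% of all probes called and 12.8% called higher, and 1 of 9 in RPMI-8226 cells, TLR7, against 0.638% and 0.556%. In these bulk samples a change in the share of cells that carry a gene cannot be told apart from a change in RNA per cell. GSK126 alone changed none of the sensor genes by limma in either cell line, though TLR3 passed in RPMI-8226 cells with the replicate block. The background was 7.48% in MM.1S cells, where 3 genes had an unadjusted p under 0.05 (DHX58, TLR7 and ZBP1), and 0.599% in RPMI-8226 cells, where TLR7 alone did. TLR7 was below background on all DMSO and GSK126 arrays of both lines, so its p-values in that comparison rest on no measured level. In the counts with UNC0638 or both inhibitors it entered the test only through those groups, with DMSO values below background.

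**Figure D2:**
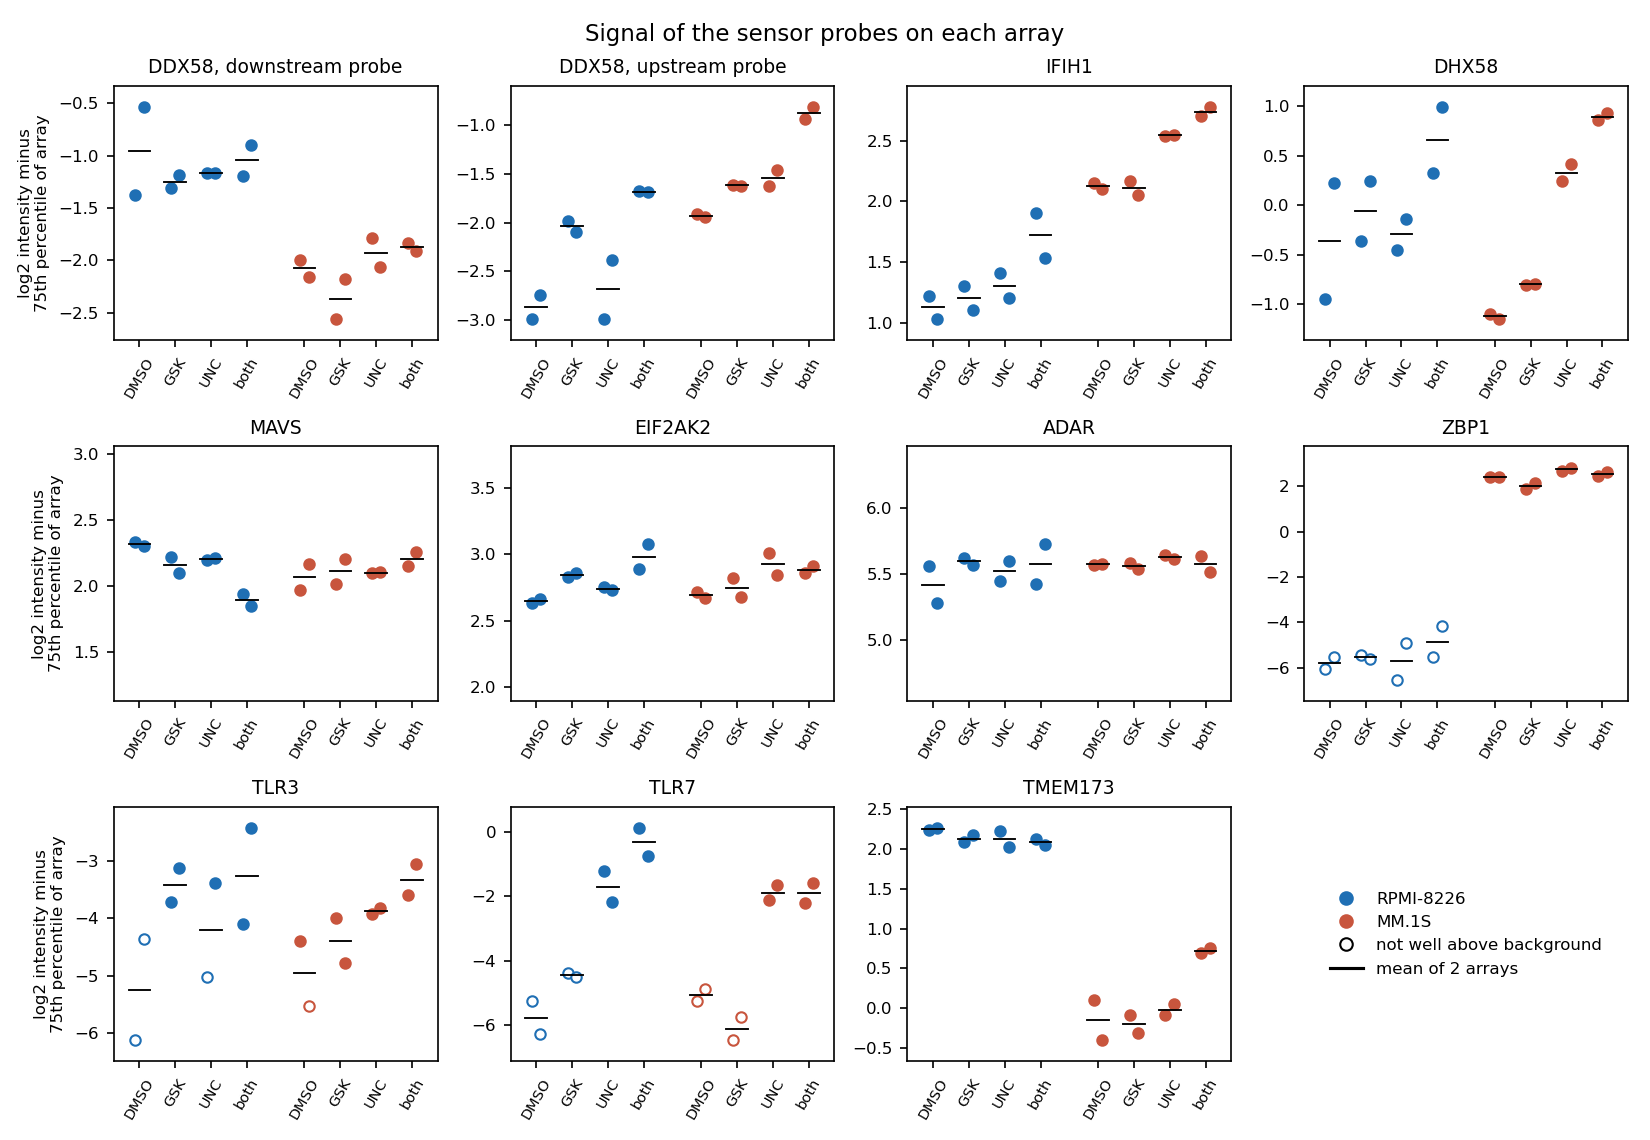
Level on every array for the probe of each sensor gene, with both probes of DDX58, in RPMI-8226 (blue) and MM.1S cells (red); the y axis is the log2 intensity minus the log2 of the 75th percentile of the array and differs in range between panels. Open points are not well above background and bars are means of 2 arrays: TLR7 is filled only with UNC0638 or both inhibitors, and ZBP1 only in MM.1S cells.

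DHX58 encodes LGP2, the regulatory member of the RIG-I-like receptors. In MM.1S cells its level was -1.10 and -1.15 with DMSO, -0.80 and -0.79 with GSK126, 0.25 and 0.41 with UNC0638, and 0.86 and 0.93 with both. The 4 groups did not overlap and stood in the order DMSO, GSK126, UNC0638, both. The rise over DMSO was 1.45 with UNC0638 (SE 0.09, limma adjusted p = 0.000693) and 2.02 with both inhibitors (SE 0.09, limma adjusted p = 0.000101), a 4.04-fold increase, and both rises passed the threshold with any single array left out. The GSK126 difference of 0.33 did not pass (limma adjusted p = 0.0782), though it did with an intensity trend in the prior variance (adjusted p = 0.0486) and with another percentile (adjusted p = 0.0438). In RPMI-8226 cells the level was -0.94 and 0.22 with DMSO, -0.36 and 0.24 with GSK126, -0.45 and -0.14 with UNC0638, and 0.33 and 0.99 with both. The DMSO arrays were 1.16 apart, and both arrays with the combination were above them. That difference of 1.02 had a 95% interval from -0.01 to 2.05 (limma adjusted p = 0.162). With the replicate number as a block, which was taken to pair the samples of these cells, it passed the threshold (adjusted p = 0.0249).

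IFIH1 encodes MDA5, the receptor for long double-stranded RNA. Its probe lies at chr2:163128806-163128865 on the minus strand of GRCh37, and its sequence is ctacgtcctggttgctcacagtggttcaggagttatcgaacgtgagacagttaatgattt. In MM.1S cells the level was 2.15 and 2.10 with DMSO, 2.16 and 2.05 with GSK126, 2.54 and 2.55 with UNC0638, and 2.70 and 2.77 with both. DMSO and GSK126 overlapped, with a difference of -0.02 (95% interval -0.21 to 0.18), while UNC0638 and both inhibitors lay above them. The rise with both was 0.61 (SE 0.08, limma adjusted p = 0.00158), or 1.53-fold, and held with each array left out. The rise with UNC0638 was 0.42 (SE 0.08, limma adjusted p = 0.0143), but the call was lost when either DMSO or either UNC0638 array was left out, with adjusted p between 0.0568 and 0.0703. In RPMI-8226 cells the level was 1.22 and 1.03 with DMSO, 1.30 and 1.11 with GSK126, 1.41 and 1.21 with UNC0638, and 1.91 and 1.54 with both. Only the arrays with both inhibitors lay above all others. Their difference from DMSO of 0.59 (SE 0.18) was about as large as in MM.1S cells and did not pass the threshold (limma adjusted p = 0.0826), but did with the replicate block (adjusted p = 0.0257). The difference between the 2 responses was -0.02, with an interval from -0.46 to 0.43.

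DDX58 encodes RIG-I, the receptor for short RNA with a triphosphate end, and its 2 probes gave different answers. Both map to the minus strand of chromosome 9 on GRCh37, at chr9:32455398-32455457 (here the downstream probe, the brighter of the pair on average) and chr9:32455728-32455787 (the upstream probe), with 330 bases between their starts. On the upstream probe the RPMI-8226 levels were -2.99 and -2.75 with DMSO, -1.98 and -2.10 with GSK126, -2.99 and -2.38 with UNC0638, and -1.68 and -1.69 with both. GSK126 and both inhibitors lay above DMSO. GSK126 alone differed by 0.83 (limma adjusted p = 0.240) and the combination rose by 1.19 (SE 0.22, limma adjusted p = 0.0206), or 2.28-fold, a call lost without any single array of DMSO or of the combination (adjusted p up to 0.107), and of 0.60 under normexp background correction (adjusted p = 0.0248). The combination was also above UNC0638 by 1.00, which did not pass (limma adjusted p = 0.0700) but did with the replicate block (adjusted p = 0.0426). On the downstream probe the levels were -1.38 and -0.54 with DMSO, -1.31 and -1.19 with GSK126, -1.17 and -1.16 with UNC0638, and -1.19 and -0.90 with both. Here the DMSO arrays were 0.84 apart and the difference was -0.09, opposite in sign (limma adjusted p = 0.856).

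In MM.1S cells the upstream DDX58 probe read -1.91 and -1.95 with DMSO, -1.61 and -1.62 with GSK126, -1.62 and -1.46 with UNC0638, and -0.93 and -0.81 with both. Each inhibitor lay above DMSO and both together lay highest. The rise was 0.39 with UNC0638 (limma adjusted p = 0.0256) and 1.06 with both (SE 0.09, limma adjusted p = 0.000452). The combination was also above GSK126 by 0.74 (limma adjusted p = 0.00299) and above UNC0638 by 0.67 (limma adjusted p = 0.0158). The call for UNC0638 was lost without either DMSO array or UNC0638 replicate 2 (adjusted p up to 0.125), and the last one without UNC0638 replicate 1 or combination replicate 2 (adjusted p up to 0.0782), while the other calls held with each array left out. The downstream probe read -2.00 and -2.16 with DMSO, -2.56 and -2.17 with GSK126, -1.79 and -2.07 with UNC0638, and -1.83 and -1.91 with both, and its difference of 0.20 did not pass (limma adjusted p = 0.328). Over the 16 arrays, each cell line centred on its own mean, the 2 probes correlated with r = 0.15. The upstream probe had r = 0.68 with IFIH1 and 0.77 with DHX58, the downstream probe 0.21 and 0.59, and IFIH1 and DHX58 had 0.71 with each other. These arrays share treatments, and the correlations are descriptions. The choice to set the upstream probe beside the other was made after the values were seen, and the reason for the disagreement was not tested.

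The genes whose pattern was most like that of IFIH1, by Pearson r over the 16 arrays with each line centred and among 18475 probes above background on every array, were RRAGC (0.97), FAM102A (0.96), FAM164A (0.96), WDR44 (0.96) and TOM1L2 (0.95). For the downstream DDX58 probe they were ST3GAL3 (0.86), LOC100506681 (0.86), C1orf54 (0.86), LOC100505771 (0.85) and FLJ37453 (0.83). For the upstream DDX58 probe they included MYL12B (0.97), BTG1 (0.96), RBMS1 (0.95) and MX2 (0.95).

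MAVS, the mitochondrial adaptor of RIG-I and MDA5, has 7 probes between chr20:3835323 and chr20:3856770 on the plus strand of GRCh37. On the probe with the highest mean its RPMI-8226 levels were 2.34 and 2.30 with DMSO, 2.22 and 2.10 with GSK126, 2.19 and 2.21 with UNC0638, and 1.94 and 1.85 with both. Both arrays with the combination lay below all others. The difference of -0.42 (SE 0.13) missed the threshold (limma adjusted p = 0.0789), as with the replicate block (adjusted p = 0.0581), but passed under normexp background correction (adjusted p = 0.0282). In MM.1S cells the levels were 1.97 and 2.17 with DMSO, 2.02 and 2.21 with GSK126, 2.10 and 2.10 with UNC0638, and 2.15 and 2.26 with both, which overlapped. Of the 6 other probes, 2 fell with both inhibitors in MM.1S cells, by -0.44 (limma adjusted p = 0.0211) and by -0.48 (limma adjusted p = 0.0461). These 2 are the ones nearest the start of the gene, at chr20:3835323-3835382 and chr20:3847884-3847943. Both calls were lost without either DMSO array or combination replicate 1, and the second also without UNC0638 replicate 1 or 2 or combination replicate 2 (adjusted p up to 0.0789 and 0.162). The other 4 differed from DMSO by -0.02 to 0.26 and did not pass. In RPMI-8226 cells the 6 other probes differed from DMSO by -0.27 to 0.26 and none passed. With the percentile over detected probes the first probe passed in MM.1S cells as well (0.32, adjusted p = 0.0456) and the pair near the start no longer did.

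EIF2AK2 encodes PKR, the kinase that phosphorylates eIF2α. Its level in RPMI-8226 cells was 2.63 and 2.66 with DMSO, 2.83 and 2.86 with GSK126, 2.75 and 2.73 with UNC0638, and 2.89 and 3.08 with both. In MM.1S cells it was 2.72 and 2.67 with DMSO, 2.82 and 2.68 with GSK126, 3.01 and 2.85 with UNC0638, and 2.86 and 2.91 with both. DMSO and the combination did not overlap, but the differences of 0.34 (95% interval 0.02 to 0.65, limma adjusted p = 0.142) and 0.19 (-0.04 to 0.42, limma adjusted p = 0.138) did not pass the threshold. In MM.1S cells UNC0638 overlapped the combination, and the UNC0638 difference of 0.23 had an unadjusted limma p under 0.05 but did not pass. The second EIF2AK2 probe differed by 0.42 and -0.09 with both inhibitors and did not pass either. ADAR, the RNA editor, had levels from 5.28 to 5.73 over all 16 arrays. With both inhibitors it differed from DMSO by 0.16 in RPMI-8226 cells (95% interval -0.25 to 0.57) and by 0.00 in MM.1S cells (-0.19 to 0.20). Under quantile normalization the MM.1S difference of ADAR was 0.49 and passed (adjusted p = 0.00479), and that of EIF2AK2 was 0.40 (adjusted p = 0.0171), while the median of all probes stayed at -0.10. EIF2AK2 also passed in MM.1S cells with the percentile over probes detected on all arrays (0.38, adjusted p = 0.0221). In RPMI-8226 cells it passed with 1 fit over all arrays (adjusted p = 0.0327).

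ZBP1 encodes the sensor of left-handed nucleic acids that recruits RIPK3. In MM.1S cells its level was 2.39 and 2.40 with DMSO, 1.90 and 2.16 with GSK126, 2.69 and 2.82 with UNC0638, and 2.46 and 2.65 with both. GSK126 lay below and UNC0638 above DMSO, by -0.36 and 0.36, and neither passed against DMSO (limma adjusted p = 0.122 and 0.0703). Both passed with an intensity trend in the prior variance (adjusted p = 0.0411 and 0.0213), and the UNC0638 difference also under quantile normalization (0.0394), with the percentile over probes detected on all arrays (0.0359) and with the replicate block (0.0324). Against each other the 2 inhibitors differed, with GSK126 lower by -0.72 (SE 0.12, limma adjusted p = 0.0189), and the second probe gave -0.66 (limma adjusted p = 0.0158). The first of these calls was lost without GSK126 replicate 1 or without either UNC0638 array, with adjusted p up to 0.463 over the alternatives, and the second without any of the 4 arrays (adjusted p up to 0.0831). The combination stood above GSK126 alone by 0.52 (limma adjusted p = 0.0203), which was lost without GSK126 replicate 1 or combination replicate 2 (adjusted p up to 0.485 over the alternatives). All 8 RPMI-8226 arrays were below background on both probes.

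TLR3 is the endosomal receptor for double-stranded RNA. Its probe, at chr4:187005890-187005949 on the plus strand of GRCh37, is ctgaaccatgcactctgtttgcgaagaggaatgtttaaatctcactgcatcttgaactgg. In MM.1S cells the level was -4.39 and -5.52 with DMSO, of which the second was not above background, -4.00 and -4.78 with GSK126, -3.93 and -3.82 with UNC0638, and -3.60 and -3.06 with both. The combination lay above all other arrays, and the fitted rise of 1.63 (SE 0.43), which takes the DMSO array below background at its value and so is not exact, passed the threshold (limma adjusted p = 0.0205). It did not pass without DMSO replicate 2 (1.07, adjusted p = 0.0766) or without combination replicate 2 (1.36, adjusted p = 0.104), and it was 0.51 under normexp background correction (adjusted p = 0.00607). In RPMI-8226 cells the level was -6.13 and -4.37 with DMSO, neither above background, -3.71 and -3.12 with GSK126, -5.03 (not above background) and -3.38 with UNC0638, and -4.11 and -2.43 with both. The mean level was at least 2.15-fold higher with the combination and at least 1.94-fold higher with GSK126 than with DMSO. For these bounds DMSO was set at the lowest signal well above background on each array, or the probe's own value where higher. The bounds leave out the spread between arrays. The limma intervals of the fitted differences, from -0.02 to 3.98 with the combination and from -0.16 to 3.83 with GSK126, included no change. Neither difference passed the threshold (limma adjusted p = 0.160 and 0.501), but both did with the replicate block (adjusted p = 0.00979 and 0.0473). In these cells TLR3 passed the filter only through the GSK126 and combination groups. The p-values take the DMSO values below background as they stand.

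TLR7, the endosomal receptor for single-stranded RNA, was well above background only where UNC0638 was present. In MM.1S cells its level was -2.12 and -1.65 with UNC0638 and -2.19 and -1.58 with both, and the 4 arrays without UNC0638 were below background. In RPMI-8226 cells it was -1.23 and -2.19 with UNC0638 and 0.11 and -0.75 with both, again with the other 4 arrays below background. Against DMSO it was at least 7.40-fold higher with UNC0638 and at least 7.39-fold higher with both in MM.1S cells (limma adjusted p = 0.00275 and 0.000724). In RPMI-8226 cells it was at least 6.33-fold higher with UNC0638 (limma adjusted p = 0.0274) and at least 16.5-fold higher with both (limma adjusted p = 0.00142). These bounds refer to group means of background-subtracted intensities, with DMSO set at the lowest signal well above background on each array. They leave out the spread between arrays and do not carry over to normexp background correction, given below. The p-values take the DMSO values below background as they stand. TLR7 passed the filter only through the groups given UNC0638. The combination calls and the MM.1S UNC0638 call held with each array left out. The RPMI-8226 UNC0638 call was lost without either array of DMSO, GSK126 or UNC0638, with adjusted p between 0.0582 and 0.122, and under normexp background correction, where the difference was 1.16 (adjusted p = 0.0807). That correction also brought the fitted combination differences from 5.44 to 2.08 in RPMI-8226 cells and from 3.16 to 1.07 in MM.1S cells, with adjusted p of 0.000582 and 0.000153.

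TLR7 is also carried by plasmacytoid dendritic cells and monocytes, so their markers were read beside it. CLEC4C, which marks plasmacytoid dendritic cells, was below background on all 16 arrays, while LILRA4, their other marker, was above it on all 16. The summed level of these 2 markers, as a multiple of the 75th percentile, was 0.965 to 1.08 with DMSO and 0.773 to 1.04 with both inhibitors in RPMI-8226 cells, and 2.48 to 2.83 and 2.10 to 2.12 in MM.1S cells. The monocyte markers CD14 and CSF1R summed to 0.530 to 0.941 with DMSO and 3.61 to 4.88 with both in RPMI-8226 cells, and to 3.38 to 5.70 with GSK126 and 0.427 to 0.803 with UNC0638. In MM.1S cells CSF1R was below background on all 8 arrays and the sum was 0.139 to 0.145 with DMSO and 0.131 to 0.149 with both. The part of the monocyte genes in the RPMI-8226 values was not tested.

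TMEM173 encodes STING, the adaptor at the endoplasmic reticulum that is switched on by cyclic dinucleotides from cGAS. In MM.1S cells its level was 0.10 and -0.40 with DMSO, -0.09 and -0.31 with GSK126, -0.09 and 0.05 with UNC0638, and 0.69 and 0.76 with both. The groups given DMSO or 1 inhibitor overlapped, and the combination lay above all of them. The rise was 0.88 over DMSO (SE 0.18, limma adjusted p = 0.00749), 1.84-fold, and held with each array left out. It was 0.92 over GSK126 (limma adjusted p = 0.0105) and 0.74 over UNC0638 (limma adjusted p = 0.0461). The call against UNC0638 was lost without any single array of GSK126, UNC0638 or the combination (adjusted p up to 0.175), and that against GSK126 without replicate 2 of GSK126 or of the combination (adjusted p up to 0.0566). In RPMI-8226 cells the level was 2.24 and 2.26 with DMSO, 2.09 and 2.17 with GSK126, 2.23 and 2.02 with UNC0638, and 2.13 and 2.06 with both. The difference with both was -0.16, with a 95% interval from -0.49 to 0.17.

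**Figure D3:**
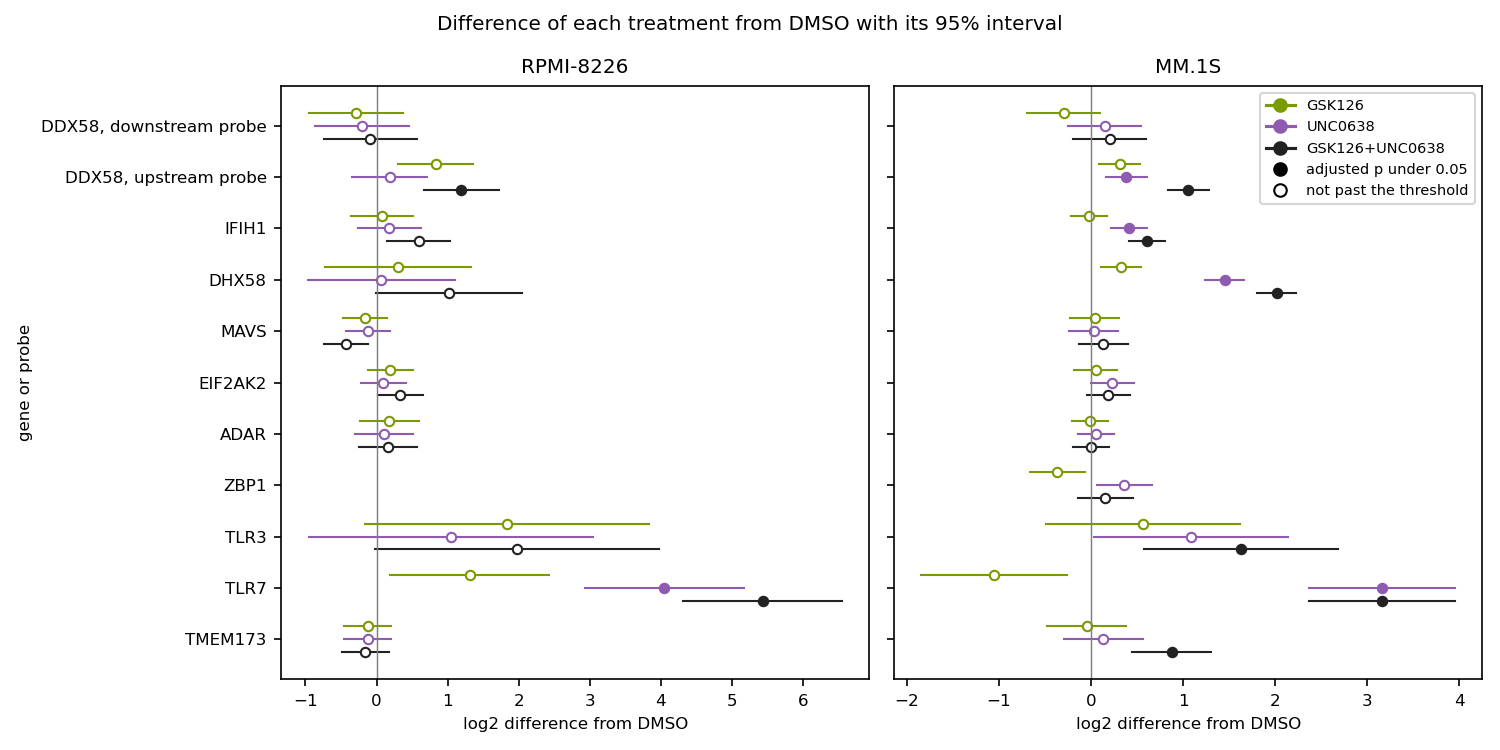
Log2 difference from DMSO of each sensor gene with GSK126, UNC0638 or both inhibitors, in RPMI-8226 cells (left) and MM.1S cells (right), with 95% intervals from limma. Filled points passed an adjusted p of 0.05: in MM.1S cells with both inhibitors these are DHX58, IFIH1, TLR3, TLR7, TMEM173 and the upstream DDX58 probe, and in RPMI-8226 cells TLR7 and the upstream DDX58 probe.

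The inhibitors were also set against each other. In MM.1S cells 4 genes were lower with GSK126 than with UNC0638, where 12.2% of all probes were called and 6.06% were called lower. These were TLR7 (at least 7.78-fold, limma adjusted p = 0.00202), DHX58 (-1.13, limma adjusted p = 0.00202), ZBP1 (-0.72, given above) and IFIH1 (-0.44, limma adjusted p = 0.0243). The IFIH1 call was lost without any single array of GSK126 or UNC0638 (adjusted p up to 0.111). In RPMI-8226 cells no gene passed (background 1.42%), although TLR7, below background with GSK126, was at least 5.51-fold lower there and had an unadjusted p under 0.05 (limma adjusted p = 0.0521). With the replicate block it passed (adjusted p = 0.00622). In both lines TLR7 passed the filter only through the groups given UNC0638, and its p-values take the GSK126 values below background as they stand. For TMEM173 the 2 inhibitors differed by 0.00 in RPMI-8226 (95% interval -0.33 to 0.34) and by -0.18 in MM.1S cells (-0.61 to 0.25).

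Against GSK126 alone, both inhibitors together raised DHX58 by 1.69, IFIH1 by 0.63, TLR7 at least 7.77-fold, TMEM173 by 0.92 and ZBP1 by 0.52 in MM.1S cells, which is 5 of 10 against 36.8% of all probes called and 15.3% called higher. In RPMI-8226 cells TLR7 alone rose, at least 14.4-fold (limma adjusted p = 0.00899, background 2.58%, and 465 of 23199 probes called higher), and the call was lost without GSK126 replicate 1 or combination replicate 1 (adjusted p up to 0.0618). In both lines TLR7 was below background on every GSK126 array and passed the filter only through the groups given UNC0638. Its calls against GSK126 take those values below background as they stand. Against UNC0638 alone, 2 of 10 rose in MM.1S cells (background 13.0%, and 6.02% higher), TMEM173 by 0.74 and DHX58 by 0.56 (limma adjusted p = 0.0196). The DHX58 call was lost without either UNC0638 array or without combination replicate 2 (adjusted p up to 0.378 over the alternatives). TLR7 differed by 0.00 there, with a 95% interval from -0.79 to 0.79. In RPMI-8226 cells none of 9 passed (background 3.38%). MAVS and TLR7 had an unadjusted p under 0.05, and TLR7, higher by 1.39 (limma adjusted p = 0.187), passed with the replicate block (adjusted p = 0.0277). Whether the response to both differed from the sum of the single responses was tested for each gene. None of the sensor genes passed in either cell line by limma, where 0.147% of all probes did in RPMI-8226 and 0% in MM.1S cells. TMEM173 in MM.1S cells, with an excess of 0.79 (SE 0.25, limma adjusted p = 0.441), was the 1 gene with an unadjusted p under 0.05.

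Between the cell lines, 4 of 10 genes differed with DMSO, where 57.7% of all probes did. ZBP1 was at least 108.7-fold lower in RPMI-8226 than in MM.1S cells (limma adjusted p = 2.26e-07), and at least 36.2-fold on its second probe, bounds that refer to the background-subtracted intensities. Its fitted difference, which with its p-value takes RPMI-8226 values below background as they stand, was -8.19, and -4.74 under normexp background correction. TMEM173 was higher in RPMI-8226 cells by 2.41 (limma adjusted p = 4.42e-07), or 5.30-fold, and IFIH1 was 1.997-fold lower (limma adjusted p = 0.000147). For DDX58 the probes disagreed in sign, since the downstream probe was higher by 1.12 (limma adjusted p = 0.00254) and the upstream probe lower by -0.94 (limma adjusted p = 0.000930). Since each line was on its own slide, these differences cannot be told apart from the slide. DHX58, at 0.76 (limma adjusted p = 0.0832), passed when RPMI-8226 DMSO replicate 1 was left out (1.35, adjusted p = 0.00394). With the replicate block within each line DHX58 (adjusted p = 0.00535) and MAVS (0.0398) passed too. TLR7 was below background on all 4 DMSO arrays, so no level was compared for it.

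The responses themselves differed between the lines for 3 genes with both inhibitors, against 13.1% of all probes. TMEM173 responded less in RPMI-8226 than in MM.1S cells, by -1.04 (SE 0.22, limma adjusted p = 0.0149), a call lost without MM.1S combination replicate 2 (adjusted p up to 0.0707 over the alternatives). On its brightest probe MAVS moved in opposite directions, by -0.42 in RPMI-8226 and by 0.14 in MM.1S cells, neither past the threshold. These responses differed by -0.56 (SE 0.16, limma adjusted p = 0.0406), a call lost with the mean over the gene's probes. Another MAVS probe moved the other way in each line. For TLR7 the fitted difference of 2.27 (SE 0.63, limma adjusted p = 0.0405) rests in part on the 4 DMSO arrays, which were below background, so its size is not known. The responses there are lower bounds, given above. The TLR7 call was lost in 10 and the MAVS call in 14 of the 16 fits that left out 1 array (adjusted p up to 0.124 and 0.645 over the alternatives), and the TLR7 difference was 1.01 under normexp background correction (adjusted p = 0.0360). None of the responses to GSK126 (background 0.776%, unadjusted p under 0.05 for TLR7, which had no array above background in it) or to UNC0638 (background 2.85%, unadjusted p under 0.05 for DHX58) differed between the lines by limma. The DHX58 response to UNC0638 was lower in RPMI-8226 by -1.38 (limma adjusted p = 0.169), and passed with the replicate block within each line (adjusted p = 0.0221) and without RPMI-8226 DMSO replicate 1 (-1.97, adjusted p = 0.0246). Its response to both inhibitors passed in the same 2 fits (adjusted p = 0.0277 and 0.0247, against 0.214).

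Other genes of these pathways are described by the counts of lists with both inhibitors, with 1 probe per gene. Over all genes tested, 8.12% were higher and 5.02% lower in RPMI-8226 cells, and 23.3% and 31.9% in MM.1S cells. The median differences over all genes were -0.12 and -0.11.

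Interferon-induced reference genes were the list with the most rises, with 12 of 18 higher and none lower in RPMI-8226 cells (median 2.03). In MM.1S cells 17 of 20 were higher and 1 was lower, HERC5 by -0.58 (median 2.13). IFI44L, at least 11.5-fold higher in RPMI-8226 and at least 21.3-fold higher in MM.1S cells, and RSAD2, an antiviral radical enzyme at least 22.0-fold higher in MM.1S cells, were among them. IFIT1, which binds viral RNA, rose by 2.81 and 4.55 in RPMI-8226 and MM.1S cells, IFI27 by 4.42 in RPMI-8226 cells and CMPK2, a mitochondrial nucleotide kinase, by 3.90 in MM.1S cells. Of 21 interferon ligand genes 17 were on the array, and 1 in RPMI-8226 and 3 in MM.1S cells were bright enough to be tested. None changed with both inhibitors by limma, in either cell line. IL29, a lambda interferon, was at least 1.42-fold higher with UNC0638 alone in MM.1S cells (limma adjusted p = 0.0108), which falls outside the rule for named genes.

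Among 10 cofactors of RNA sensing, 3 rose and 3 fell in MM.1S cells (median 0.17) and none of 9 changed in RPMI-8226 cells (median -0.26). DDX60, a helicase that promotes RIG-I signalling, rose at least 10.67-fold and ZNFX1, an RNA sensor at mitochondria, by 1.47, while the helicases DHX9 and DDX3X fell by 0.48 and 0.42. In the DNA sensing list, 5 of 10 genes fell in MM.1S cells and none rose (median -0.45). MB21D1, which encodes cGAS, fell by 0.87, and the subunits of ribonuclease H2, RNASEH2C and RNASEH2A, by 0.79 and 0.68. In RPMI-8226 cells MB21D1 fell by 0.60 and RNASEH2A by 0.55, while AIM2, the inflammasome DNA sensor, rose by 1.44 (1 of 10 higher, 2 lower, median -0.16).

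The partners of the endosomal receptors gave 4 higher and 2 lower of 8 in MM.1S cells (median 0.23), with the protease CTSS up by 1.27, the adaptor MYD88 up by 0.64 and the kinase IRAK1 changed by -0.79. In RPMI-8226 cells 1 of 9 rose, CD14 by 2.65 (median -0.11). Of the kinases and IRFs downstream of MAVS and STING, 4 rose and 1 fell of 13 in MM.1S cells (median 0.07), among them TRADD by 0.82 and IRF5 by 0.55, and CHUK fell by 0.65. In RPMI-8226 cells 2 of 12 rose, IRF7 by 1.09 and TANK by 0.88 (median -0.12).

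Among 12 negative regulators, 6 rose and 2 fell in MM.1S cells (median 0.29), including ADARB1, a second RNA editor, by 2.31, USP18, which removes ISG15, by 2.09, and RNF125, a ubiquitin ligase for RIG-I, by -1.29. In RPMI-8226 cells 2 rose, USP18 at least 2.20-fold and NLRX1 by 0.60 (median 0.08). The list called PKR branch gave 5 of 8 lower and none higher in MM.1S cells (median -0.49). These were ATF4 by -0.95, PPP1R15B by -0.91, DDIT3 by -0.81 and EIF2S1 by -0.58, besides EIF2AK1, which encodes another eIF2α kinase. The list is not particular to PKR, and EIF2AK2 itself did not pass by limma in either cell line. None of the 8 genes of the list changed in RPMI-8226 cells (median -0.25). In the ZBP1 branch, 2 of 5 rose and 2 fell in MM.1S cells (median 0.17), RIPK3 by 1.20 and RIPK1 by 0.77 against MLKL by -0.66 and FADD by -0.37, and RIPK1 rose by 0.71 in RPMI-8226 cells (1 of 5, median 0.10).

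**Figure D4:**
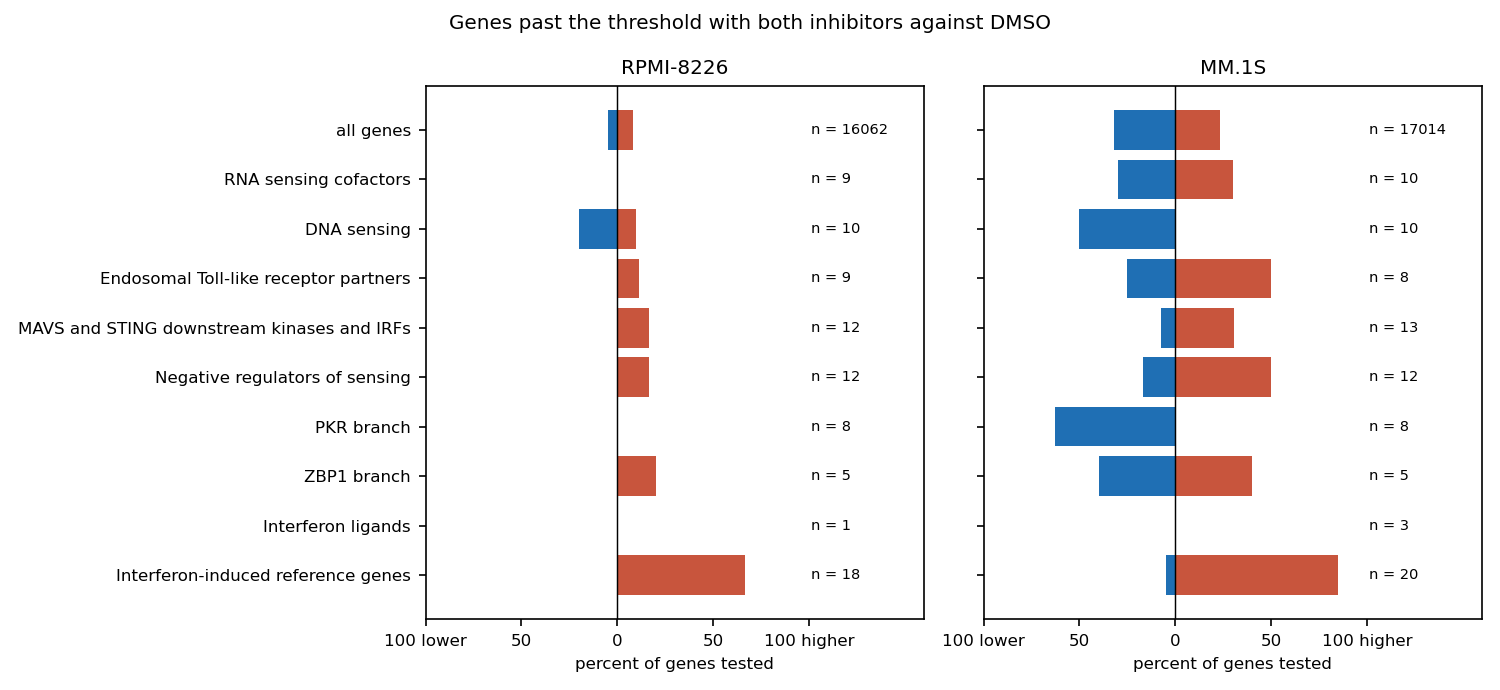
Percent of the genes tested (n) in each list that were higher (red, to the right) or lower (blue, to the left) with both inhibitors than with DMSO, by limma at an adjusted p of 0.05. The interferon-induced genes stand out to the right in both cell lines (12 of 18 and 17 of 20 higher), and the DNA sensing and PKR lists lie to the left in MM.1S cells (5 of 10 and 5 of 8 lower).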

How the data were processed

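Total RNA of the 16 samples was labelled and hybridised by the authors to 1-colour human arrays. The deposited scanner output gives each spot a background-subtracted intensity, not logged, with flags for background, saturation and outliers (Agilent Feature Extraction 10.7.3.1, per the file headers, with probe positions on GRCh37). No scaling between arrays had been applied. The authors' series-wide table repeats these intensities and served as an alternative, and 0 of its columns belonged to samples outside the series.

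Control and outlier spots were left out, and each probe's log2 intensities minus the 75th percentile of the array were averaged over its spots. Models from limma 3.58.1 (R 4.3.3) used the 8 arrays of a cell line, or all 16 for differences between lines, with Benjamini-Hochberg adjustment over all probes tested. The study's methods name Gene Spring GX but no normalization or test. The fits were tested on simulated data. Its noise was drawn independently for each array, so it did not cover same-numbered arrays that move together, described below.

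The members and lists were chosen with earlier results of these data known. All 10 members are named. Genes of the lists are named where past the threshold with both inhibitors, up to 4 per list by size of change. Likeness to DDX58 and IFIH1 is Pearson r, with the first 5 named except 1 gene that is not reported here. Groups and replicate numbers come from the labels. In RPMI-8226 cells arrays with the same number moved together about their group means in all 6 pairs of groups (r across probes 0.25 to 0.42), so the numbers were taken to pair the samples there. In MM.1S cells r was lower but positive, 0.08 to 0.22, with 5 of 6 over 0.1. There the numbers were not taken to pair the samples, though these values do not exclude a pairing. Replicate numbers also follow the row of the slide, and in each line the file names give the arrays of a number a common date, whose meaning is not stated.

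The alternatives were quantile normalization, normexp background correction (offset 50), a percentile over probes detected on all arrays, no filter, a filter on every array, the series-wide table, the replicate block, an intensity trend in the prior variance, only the groups compared, 1 fit over all arrays, the mean over a gene's probes, and each array left out. Reading DDX58 from its other probe was added later, with the values known. Slide could not enter as a block, because each line lay on 1 slide.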

Additional observations from a re-analysis of the deposited data

Results flagged for a closer look

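The response to both inhibitors differed between the cell lines for 3 sensor genes by a test of the difference itself. Taking the log2 response in RPMI-8226 less that in MM.1S cells, MAVS gave -0.56, TLR7 2.27 and TMEM173 -1.04. The MAVS call was lost with the mean over the gene's probes and in 14 of the 16 fits that left out 1 array. The TLR7 call was lost in 10 of those 16 fits. The TMEM173 call was lost in 1 of them and with only the groups compared. The TLR7 value is not exact, because TLR7 was below background on all 4 DMSO arrays. With 2 arrays per group, no group was large enough for a test of single outlying arrays.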

How the results depend on the processing

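The counts of sensor genes past the threshold moved by over 1.5 times under the settings named here. With the replicate block, the counts went from 1 to 4 for both inhibitors against DMSO, from 0 to 1 for GSK126 against DMSO, both inhibitors against UNC0638 and GSK126 against UNC0638 in RPMI-8226 cells, and from 0 to 1 for GSK126 against DMSO in MM.1S cells. In MM.1S cells arrays of the same number moved together less (r 0.08 to 0.22) and were not taken as paired. The upstream DDX58 probe apart, no further call of a sensor gene in RPMI-8226 cells changed with the block. TLR3, among the calls gained against DMSO in RPMI-8226 cells, was below background on the DMSO arrays. The call gained for GSK126 against DMSO in MM.1S cells, that for the GSK126 response between the lines and 1 of the 3 for the DMSO level are TLR7, which had no array above background in those groups. The block also moved the counts from 0 to 1 for the GSK126 and the UNC0638 response between the lines and from 4 to 7 for the DMSO level between the lines. For both inhibitors against DMSO in RPMI-8226 cells the count was 3 under normexp or an intensity trend, 0 with a filter on every array, 5 with 1 fit over all arrays and 2 with the other DDX58 probe, whose difference of 1.19 (adjusted p = 0.0206) reversed the sign of the first probe. For both against GSK126 there, it was 0 with a filter on every array and 2 with 1 fit. For UNC0638 against DMSO there, it was 0 under normexp, no filter, a filter on every array and only the groups compared. For GSK126 against UNC0638 there, it was 1 under an intensity trend, 1 fit and the mean over probes. In MM.1S cells GSK126 against DMSO gave 1 with the other percentile and 2 with an intensity trend, UNC0638 against DMSO 5 under quantile normalization, and both against DMSO 3 with a filter on every array. GSK126 against UNC0638 gave 2 with no filter, 2 with only the groups compared and 1 with 1 fit, and both against UNC0638 gave 0, 0 and 1. The combination response between the lines gave 1 with no filter and 0 with only the groups compared. With 1 array left out the counts ranged from 2 to 4 (GSK126 against UNC0638), 3 to 5 (both against GSK126) and 0 to 2 (both against UNC0638) in MM.1S cells, from 0 to 1 (both against GSK126, and UNC0638 against DMSO) in RPMI-8226 cells, and from 0 to 1 (UNC0638) and 0 to 3 (both) for the responses between the lines. The filter on every array took TLR3 and TLR7 out of the tests, since neither was above background on every array of either line. Other causes were not tested. The percentile over detected probes moved the median of all probes with both inhibitors from -0.14 to 0.00 in RPMI-8226 and from -0.12 to 0.07 in MM.1S cells. Values near background (TLR3, TLR7 and ZBP1 in RPMI-8226) are limited by signal over background.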
